A study of Homo sapiens with 6 samples.

Results

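The genes described here encode the subunits, activators and assembly chaperones of the proteasome. They were taken as the protein-coding genes of the deposited count table whose symbol starts with PSM, a letter from A to G and a digit, which gave 49 of 29538 genes. The proteasome is the barrel-shaped protease that degrades proteins tagged with ubiquitin. Its 20S core holds outer rings of alpha subunits (PSMA genes) and inner rings of beta subunits (PSMB genes), some of which carry the peptide-cutting sites. The 19S particle at its ends, made of ATPases (PSMC genes) and non-ATPase subunits (PSMD genes), binds ubiquitin, unfolds substrates and feeds them into the core. Chaperones named PSMG, with PSMD5, PSMD9 and PSMD10, help to build these particles, and the PSME proteins form alternative caps. In cells exposed to interferon, the catalytic subunits PSMB8, PSMB9 and PSMB10 replace the standard ones and form the immunoproteasome, which cuts peptides for antigen presentation.

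The data are poly(A)-selected, strand-specific RNA-seq of MDA-MB-231, an established human breast cancer line with mesenchymal character. Of the cultures, 3 received an siRNA against BYSL (siBYSL) and 3 a negative-control siRNA (siNC). BYSL encodes bystin, a factor for maturation of the small ribosomal subunit. In both groups each well was given 160 pmol of siRNA with 4 µL of Lipofectamine RNAiMAX, the medium was replaced after 6 h, and RNA was taken at 48 h. The labels describe the libraries of each group as independent biological replicates. The model is limited to a single line, a transient transfection and a single siRNA sequence against BYSL.

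Library totals were 27754883, 32088817 and 28508460 counts in siBYSL and 28999507, 28606048 and 30476744 in siNC. BYSL itself averaged 16.3 ± 0.943 CPM in siBYSL and 99.9 ± 4.93 CPM in siNC (SD, n = 3 each), a log2 fold change of -2.61 (SE 0.067, adjusted p = 9.4e-09 by edgeR's quasi-likelihood test). The mesenchymal genes VIM, at 2085 CPM in siBYSL and 2404 CPM in siNC, and CD44, at 894 CPM in siBYSL and 782 CPM in siNC, were abundant. ESR1 and PGR, which mark hormone-responsive breast cells, and the leukocyte gene PTPRC were below 1 CPM in both groups. The leukocyte list summed to 11.7 to 15.8 CPM in siBYSL and 10.8 to 12.5 CPM in siNC, most of it CD14 (12.9 CPM in siBYSL and 11.2 CPM in siNC on average), and the endothelial list to 10.9 to 12.2 CPM in siBYSL and 9.48 to 10.6 CPM in siNC, with PECAM1 at 6.48 CPM in siBYSL and 5.32 CPM in siNC. Of 6 luminal genes, CDH1 (9.18 CPM in siBYSL and 4.48 CPM in siNC) and EPCAM (20.9 and 14.4 CPM) were called higher. The luminal list summed to 608 to 769 CPM in siBYSL and 595 to 633 CPM in siNC. Most of this was KRT18, at 631 CPM in siBYSL and 586 CPM in siNC, which was not called, nor was GATA3 (14.1 and 13.3 CPM). Of 5 mesenchymal genes 3 were lower and 1 higher, and the list summed to 3997 to 4106 CPM in siBYSL and 4656 to 4730 CPM in siNC. The part of such a shift in the proteasome values was not tested. CPM are counts scaled to library size, with library sizes adjusted by the trimmed mean of M-values (TMM). A gene is called where its p, adjusted over all 16412 genes tested, was under 0.05. Across all genes tested, 18.4% were called lower and 18.5% higher in siBYSL, and the median log2 fold change was 0.01. Of the 13361 protein-coding genes among them, 20.9% were called lower and 19.7% higher, with a median of -0.01. These shares are the background for the counts of called genes in each role given below.

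Proteasome genes were lower more often than they were higher in siBYSL. Of the 49, 48 passed the filter on low counts. Of these, 23 (47.9%) were called lower, against 18.4% of all genes tested and 20.9% of the protein-coding ones. PSMG4 was the 1 called higher, against 18.5% of all genes tested and 19.7% of the protein-coding ones. Their log2 fold changes ran from -0.58 for PSME3 to 0.32 for PSMG4, with a median of -0.17, and 44 of 48 were negative. The count of negative values was 34 and the count of lower calls 16 when libraries were scaled by their totals alone, a scaling under which the median of all genes stood at 0.09 and that of the proteasome genes at -0.09. All siBYSL libraries lay below all siNC libraries for 23 of the 48, where 24.9% of all genes tested did so. They lay above all siNC libraries for 3 (PSMD7, PSMD10 and PSMG4), where 4059 of all 16412 genes tested did so. Summed over these genes, the libraries held 7156, 7459 and 8134 CPM in siBYSL and 8853, 8356 and 8624 CPM in siNC, so with TMM every siBYSL sum was below every siNC sum. As a share of the library total the groups overlapped, with 0.822% in siBYSL 3 and 0.819% in siNC 2. In bulk RNA, fewer cells of a kind and less of an RNA per cell cannot be told apart.

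**Figure D1:**
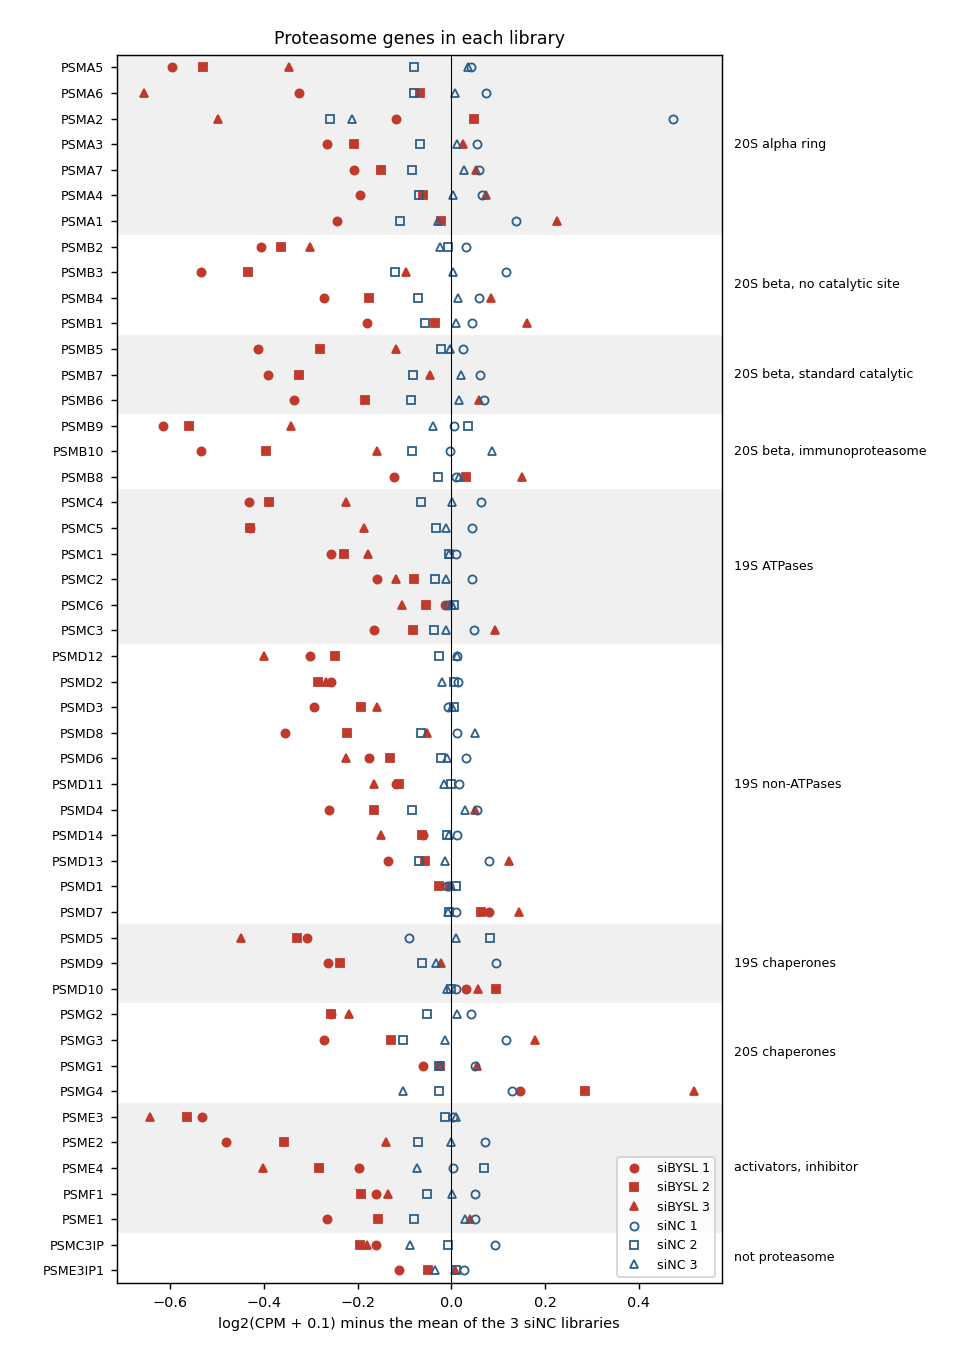
Each point is a library's log2(CPM + 0.1) for a gene minus the mean of the 3 siNC libraries; filled red symbols are siBYSL, open blue symbols are siNC, and genes are grouped by role. Among the called genes, PSME3, PSMA5 and PSMB9 lie farthest to the left, and siBYSL 3 (triangles) is often to the right of siBYSL 1 (circles).

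Among the alpha subunits, which form the outer rings of the core and gate its entrance, PSMA5 was the only called gene. PSMA5 (ENSG00000143106.13, chr1:109399031-109426427 on GRCh38, minus strand) had 192, 201 and 229 CPM in siBYSL, against 299.7, 275 and 298 CPM in siNC. Every siBYSL culture was thus below every siNC culture, with 71.3% of the siNC level left (log2 fold change -0.49, SE 0.069, edgeR adjusted p = 3.1e-04). PSMA3, PSMA4 and PSMA7 had log2 fold changes of -0.15, -0.06 and -0.10 and overlapped between groups. PSMA7 had the highest level per length of all the proteasome genes, at 499 CPM per kilobase of its principal transcript in siBYSL and 534 in siNC.

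The counts of 3 alpha subunit genes could not be read alone, because each shares exons on the same strand with a gene annotated under another name, and the counting rule is not given in the sources used here. PSMA2 had 17 to 30 counts in siBYSL and 20 to 35 in siNC, and the overlapping gene RP11-111K18.1, which shares 781 exon bases with it, had 224, 235 and 260.4 CPM in siBYSL and 297, 277 and 289 CPM in siNC. PSMA6, at 3.77 ± 0.776 CPM in siBYSL and 4.76 ± 0.258 CPM in siNC (SD, n = 3 each), overlaps RP11-561B11.2, and PSMA1, at 76.8 ± 12.5 CPM in siBYSL and 77 ± 6.8 CPM in siNC, overlaps RP11-140L24.4. These overlapping genes were called lower, with log2 fold changes of -0.26 for RP11-111K18.1 (SE 0.0627, edgeR adjusted p = 0.00735), -0.24 for RP11-561B11.2 (adjusted p = 0.0361) and -0.36 for RP11-140L24.4 (adjusted p = 2.6e-04). When the counts of each pair were added, a step chosen after the data were seen, the sums for PSMA1, PSMA2 and PSMA6 were called lower, at -0.24, -0.26 and -0.24. RP11-111K18.1 had 6468 to 7754 counts in siBYSL and RP11-561B11.2 had 6300 to 8162. The sums for PSMA2 and PSMA6 were thus nearly all counts of the overlapping gene and repeat its value. Of the exon bases of these 2 overlapping genes, 25.5% and 23.8% are shared with the PSMA gene, so the sums do not show the level of PSMA2 or PSMA6. RP11-140L24.4 had 3721 to 4580 counts in siBYSL, against 1872 to 2588 for PSMA1. The larger part of the PSMA1 sum was thus also counts of the overlapping gene. PSMA1 alone had a log2 fold change of -0.004 and was not called.

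The beta subunits without a catalytic site are structural parts of the inner rings. PSMB2 had 216, 223 and 232 CPM in siBYSL, against 293, 285 and 282 CPM in siNC, and the groups did not overlap. Its log2 fold change was -0.36 (SE 0.0503, edgeR adjusted p = 3.2e-04). PSMB3 had 165, 177 and 223 CPM in siBYSL, against 259, 219.8 and 239.5 CPM in siNC. Here siBYSL 3 fell within the siNC range; the call (log2 fold change -0.35, SE 0.102, adjusted p = 0.0216) was lost without siBYSL 1, siBYSL 2, siNC 1 or siNC 3. PSMB1, at -0.01, and PSMB4, at -0.11, were not called.

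Of the standard catalytic subunits, PSMB5, which carries the chymotrypsin-like site and is the main target of bortezomib, and PSMB7, which carries the trypsin-like site, were called lower. PSMB5 had 160.1, 175 and 196 CPM in siBYSL, against 217, 209.8 and 213 CPM in siNC, with no overlap (log2 fold change -0.27, SE 0.0691, edgeR adjusted p = 0.0118). PSMB7 had 271, 283 and 344 CPM in siBYSL, against 370.1, 335 and 360.0 CPM in siNC, with siBYSL 3 inside the siNC range (log2 fold change -0.25, SE 0.0839, adjusted p = 0.0389). PSMB6, which carries the caspase-like site, had 145, 161 and 190.4 CPM in siBYSL, against 192, 172 and 185 CPM in siNC, and was not called (log2 fold change -0.15, 95% interval -0.32 to 0.03). The PSMB5 call was lost without siBYSL 2 or siNC 1, and the PSMB7 call without any single library other than siBYSL 3 and with library totals or upper-quartile factors as the scaling.

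Of the 3 immunoproteasome subunits, PSMB9 and PSMB10 were called lower and PSMB8 was not. PSMB9 (chr6:32844136-32859585, plus strand) and PSMB8 (chr6:32840717-32844703, minus strand) are neighbours within the antigen-presentation region, where their annotated exons share 139 bases on opposite strands. PSMB9 had 34, 35.3 and 41.1 CPM in siBYSL, against 52.3, 53.4 and 50.7 CPM in siNC, a log2 fold change of -0.50 (SE 0.0741, edgeR adjusted p = 4.1e-04). PSMB8 had 124, 138 and 149.5 CPM in siBYSL, against 136, 132 and 136 CPM in siNC, so the groups overlapped (log2 fold change 0.02, 95% interval -0.11 to 0.15). PSMB10 had 12.7, 14 and 16.5 CPM in siBYSL, against 18.4, 17.4 and 19.6 CPM in siNC, without overlap (log2 fold change -0.36, SE 0.0985, adjusted p = 0.0152). The PSMB10 call was lost without siBYSL 2 or siNC 3, and when CTC-479C5.12, a gene that shares exon bases with it, was added to its counts. Per kilobase, PSMB8 stood at 122 CPM in siBYSL and 119.8 in siNC, beside 137 in siBYSL and 165 in siNC for PSMB5. PSMB10 stood far lower, at 11.8 CPM per kilobase in siBYSL and 15.1 in siNC, beside 305 in siBYSL and 362 in siNC for PSMB7.

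Because each immunoproteasome subunit takes the place of a named standard subunit, the ratio of their counts was taken within each library, where it does not depend on scaling between libraries. The log2 ratio of PSMB8 to PSMB5 was -0.37, -0.35 and -0.39 in siBYSL, against -0.68, -0.67 and -0.64 in siNC, a difference of 0.29 towards PSMB8 in siBYSL. The ratio of PSMB9 to PSMB6 was -2.09, -2.19 and -2.21 in siBYSL, against -1.87, -1.69 and -1.87 in siNC, a difference of -0.35, away from PSMB9. The ratio of PSMB10 to PSMB7 was -4.41, -4.34 and -4.38 in siBYSL, against -4.33, -4.27 and -4.20 in siNC, a difference of -0.11. The groups did not overlap for any of the 3 pairs, and the differences had different signs. An exact two-sided permutation test gave p = 0.10 for each pair (adjusted p = 0.10 over the 3 pairs), the smallest p that 3 against 3 libraries allow, so none could pass 0.05.

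**Figure D2:**
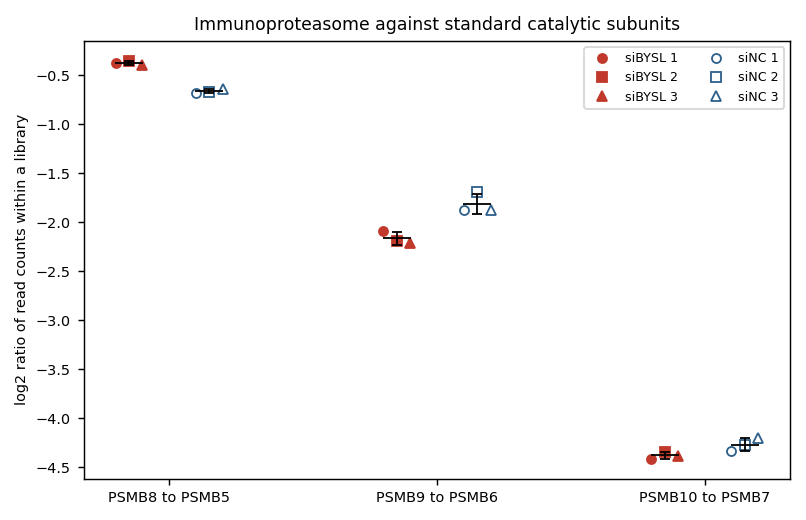
The log2 ratio of read counts of an immunoproteasome subunit to its standard counterpart is shown per library (siBYSL filled red, siNC open blue, horizontal line the mean, bars SD, n = 3 each). The siBYSL points lie above siNC for PSMB8 to PSMB5 (-0.37 against -0.66 on average) and below siNC for PSMB9 to PSMB6 (-2.16 against -1.81).

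The 6 ATPases of the 19S particle form a ring that unfolds substrates and threads them into the core. PSMC4, PSMC5 and PSMC1 were called lower, while PSMC2, PSMC6 and PSMC3 had log2 fold changes of -0.12, -0.06 and -0.05 and were not called. PSMC4 had 112, 116 and 129.7 CPM in siBYSL, against 158, 145 and 152 CPM in siNC (log2 fold change -0.35, SE 0.0635, edgeR adjusted p = 0.00162). PSMC5 had 172, 172 and 204 CPM in siBYSL, against 239.7, 227 and 230.4 CPM in siNC (log2 fold change -0.34, SE 0.0687, adjusted p = 0.00274). In both genes every siBYSL library was below every siNC library. PSMC1 averaged 214 ± 6.06 CPM in siBYSL and 249 ± 1.61 CPM in siNC (SD, n = 3 each; log2 fold change -0.22, adjusted p = 0.00435). Of the annotated exon bases of PSMC1, 75.8% lie opposite exons of NRDE2, and of those of PSMC5 19.5% lie opposite FTSJ3. The library kit keeps strand, but the strand setting of the counting is not given in the sources used here.

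Of 11 non-ATPase subunits of the 19S particle, 6 were called lower, where 18.4% of all genes tested were. PSMD12, a subunit of the lid, had 154, 159 and 144 CPM in siBYSL, against 191, 186 and 191 CPM in siNC (log2 fold change -0.31, SE 0.0529, edgeR adjusted p = 9.6e-04). PSMD2, the scaffold subunit that docks ubiquitin receptors and other cofactors, averaged 439 ± 4.52 CPM in siBYSL and 529.5 ± 6.37 CPM in siNC (SD, n = 3 each; log2 fold change -0.27, adjusted p = 0.00136). These 2 genes varied little within a group, and their groups were far apart. PSMD3, PSMD6 and PSMD11, further lid subunits, were lower by smaller amounts, with log2 fold changes of -0.21 (adjusted p = 0.00757), -0.18 (adjusted p = 0.016) and -0.13 (adjusted p = 0.0455), and PSMD8 stood at -0.21 (adjusted p = 0.048). The calls of PSMD3, PSMD6, PSMD8 and PSMD11 were lost with library totals as the scaling. The PSMD6 call was also lost without siNC 1 or siNC 3, and those of PSMD8 and PSMD11 without any single library other than siBYSL 3 and with upper-quartile factors. The PSMD8 call was also lost with the filter at 1 CPM. The PSMD11 call was also lost without a filter, with a block on replicate number and by the DESeq2 Wald test. PSMD1, the other scaffold subunit, was close to level at 182 ± 1.67 CPM in siBYSL and 184 ± 1.22 CPM in siNC (log2 fold change -0.01, SE 0.0452). PSMD14, the deubiquitinase that strips ubiquitin chains, and PSMD4, a ubiquitin receptor, had -0.09 and -0.12 and were not called, nor was the lid subunit PSMD13, at -0.02. PSMD7, the partner of PSMD14, was the single 19S gene with a positive value, 0.10, which was not called, but was called higher with library totals or upper-quartile factors.

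Among the chaperones that assemble the 19S base, PSMD5 was called lower, with 67.9, 67 and 61.6 CPM in siBYSL, against 79, 89.1 and 84.7 CPM in siNC (log2 fold change -0.36, SE 0.0627, edgeR adjusted p = 0.00113). PSMD9 and PSMD10 had -0.17 and 0.06 and were not called. The chaperones of the core held a call in each direction. PSMG2, which with PSMG1 starts the alpha ring, averaged 85.8 ± 1.29 CPM in siBYSL and 102 ± 3.35 CPM in siNC (SD, n = 3 each; log2 fold change -0.24, adjusted p = 0.0031), while PSMG1 stood at -0.01. PSMG4, which works as a pair with PSMG3, had 27.6, 30.4 and 35.7 CPM in siBYSL, against 27.3, 24.4 and 23.2 CPM in siNC, so that siBYSL 1 was only just above siNC 1. Its call (log2 fold change 0.32, SE 0.0976, adjusted p = 0.0241) was lost without siBYSL 2, siNC 2 or siNC 3. PSMG3 had -0.06 (SE 0.104) and overlapped between groups.

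The activators and the inhibitor held the largest difference. PSME3, which encodes PA28 gamma, the nuclear cap that promotes degradation without ubiquitin, had 162, 158 and 149.8 CPM in siBYSL, against 235, 232 and 236 CPM in siNC (log2 fold change -0.58, SE 0.0495, edgeR adjusted p = 1.3e-05). That left 66.9% of the siNC level, with little spread within either group. PSME2, the beta subunit of the interferon-inducible PA28 cap, had 189, 205 and 239 CPM in siBYSL, against 277, 250.2 and 263 CPM in siNC (log2 fold change -0.32, SE 0.0799, adjusted p = 0.00948). Its partner PSME1 had 203, 219 and 251 CPM in siBYSL, against 252, 231 and 249 CPM in siNC, overlapped and was not called (-0.12). PSME4, the PA200 cap, had 67.3, 63.5 and 58.4 CPM in siBYSL, against 77.5, 81.1 and 73.4 CPM in siNC (log2 fold change -0.29, SE 0.0653, adjusted p = 0.00512). PSMF1, the inhibitor PI31, stood at -0.16 (edgeR adjusted p = 0.0243). This call was lost without siBYSL 2, siNC 1 or siNC 3. It was also lost with library totals, upper-quartile factors or a block on replicate number.

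**Figure D3:**
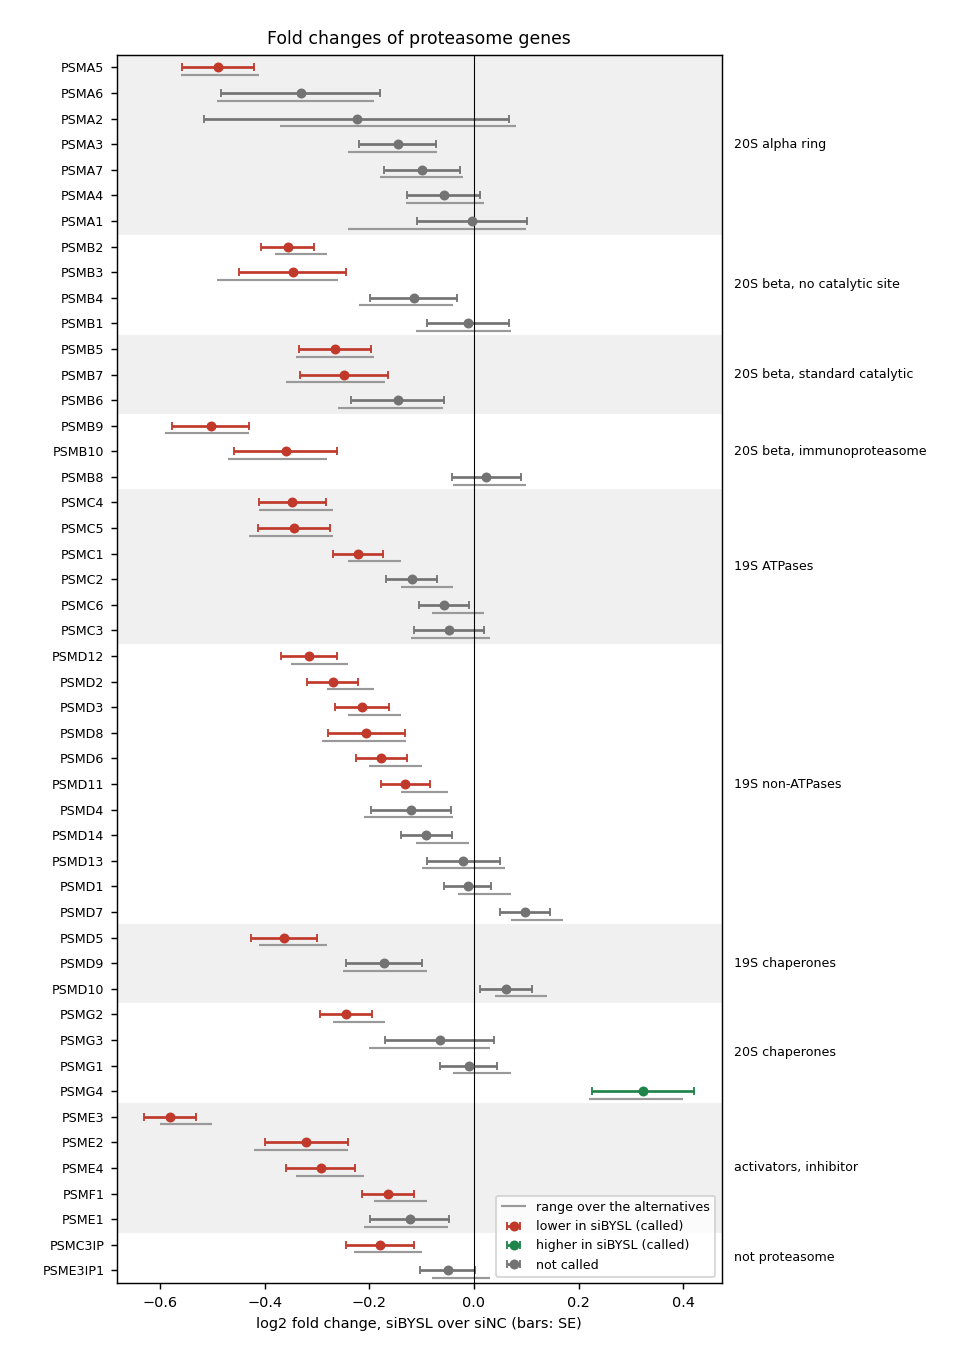
Points are log2 fold changes, siBYSL over siNC, from edgeR with SE bars, grouped by role; red marks genes called lower, green the gene called higher and grey those not called. Values run from -0.58 for PSME3 to 0.32 for PSMG4, and the called genes are spread over all the roles of the particle.

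The siRNA sequence is shown because the seed of a guide strand (bases 2 to 8) can pair with 3′ untranslated regions of other messages. The strands were taken from the labels, and the seed is in capitals.
siBYSL guide strand: uAUUCAGCaacgucaucuctt
siBYSL passenger strand: gagaugacguugcugaauatt
The heptamer complementary to the seed is GCTGAAT, and it is in capitals in the following stretches of the longest annotated 3′ untranslated region (GENCODE 29, transcript strand) of genes called lower.
PSME3: tatgccagttgaGCTGAATcttttccccag
PSMA5: ctatttggatagGCTGAATtcatactaaat
PSME4, first site: ggagtttttggtGCTGAATagagccagttg
PSME4, second site: tagtatctacatGCTGAATgactgaataca
PSMF1: agtttctgtaggGCTGAATgactctttttc
PSMG4, the gene called higher, and PSMD9, which was not called, hold the heptamer as well. In all, 6 of the 48 genes tested (12.5%) had it, a share close to the 11.9% of the 13067 tested genes with an annotated 3′ untranslated region. Of these 6, 4 were called lower and 1 higher, and of the 42 proteasome genes without it 19 were called lower. Over all genes tested, 33.7% of 1550 with the heptamer and 19.2% of 11517 without it were called lower. PSME3 and PSMA5, which had the largest and the third largest falls, both carry the heptamer, and the part of the seed in their values was not tested.

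The 2 remaining genes match by symbol although their proteins are not proteasome components. PSMC3IP encodes the recombination factor HOP2 and averaged 29.1 ± 0.341 CPM in siBYSL and 32.9 ± 2.1 CPM in siNC (SD, n = 3 each; log2 fold change -0.18, edgeR adjusted p = 0.0498). Its call was lost without any single library other than siBYSL 3, and by the DESeq2 Wald test and limma-voom. It was also lost with library totals, upper-quartile factors, the filter at 1 CPM or a block on replicate number. PSME3IP1, which encodes a binding partner of PA28 gamma, had a log2 fold change of -0.05 and was not called. Without this pair, 22 of 46 genes were called lower and 1 higher. PSMA8, the alpha subunit of germ cells, had 1 count in the 6 libraries together and was not tested. Antisense genes named after proteasome genes were counted as genes of their own. Of the 4 tested, PSMA3-AS1 was called higher (log2 fold change 0.21, edgeR adjusted p = 0.0143), as was PSMG3-AS1 (0.51, adjusted p = 0.00705). PSMB8-AS1 (0.05) and PSMD6-AS2 (0.58, adjusted p = 0.0852) were not called.

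The siBYSL libraries differed among themselves in these genes. The median difference of the 48 genes from the siNC mean was -0.26 in siBYSL 1, -0.18 in siBYSL 2 and -0.11 in siBYSL 3, and 45, 43 and 30 of the genes lay below that mean. For the 20S core the medians were -0.33, -0.18 and -0.05 in siBYSL 1, 2 and 3, whereas for the 19S particle they were -0.18, -0.13 and -0.15. The difference between these medians was not tested, and siBYSL 3 lay well below siNC for some core genes, such as PSMA5 and PSMB9, and above it for some 19S genes, such as PSMC3 and PSMD7. siBYSL 1 was the lowest of the 3 siBYSL libraries for 31 of the genes. Without siBYSL 3, 34 proteasome genes were called lower, where 4075 of all 16743 genes tested (24.3%) were, the additional ones being PSMA3, PSMA4, PSMA7, PSMB4, PSMB6, PSMC2, PSMC3, PSMD4, PSMD9, PSME1 and PSMG3. Without siNC 1 or siNC 3, 15 were called lower, where 2252 and 2105 of all genes tested were.

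Transcript length moved with the difference between siBYSL libraries. Most core subunits have short messages, and 15 of the 17 core genes were higher in siBYSL 3 than in siBYSL 1, as were 11 of the 17 subunit genes of the 19S particle. Over the 48 genes the difference of siBYSL 3 from siBYSL 1 had a Pearson r of -0.52 and a Spearman rho of -0.63 with log2 transcript length, and over 13082 other protein-coding genes r was -0.42 and rho -0.48. These are descriptions across genes of the same pair of libraries, and genes are not independent replicates. Among the 20 proteasome genes with transcripts under 1500 bases, the medians were -0.27, -0.17 and -0.01 in siBYSL 1, 2 and 3, and among 1954 other coding genes of that length they were -0.16, -0.09 and 0.08. Among the 28 longer proteasome genes they were -0.22, -0.19 and -0.14, and among 11128 other longer coding genes 0.03, 0.01 and -0.04. The proteasome medians were below those of other genes of like length in each siBYSL library. The part of length in the calls was not tested.

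**Figure D4:**
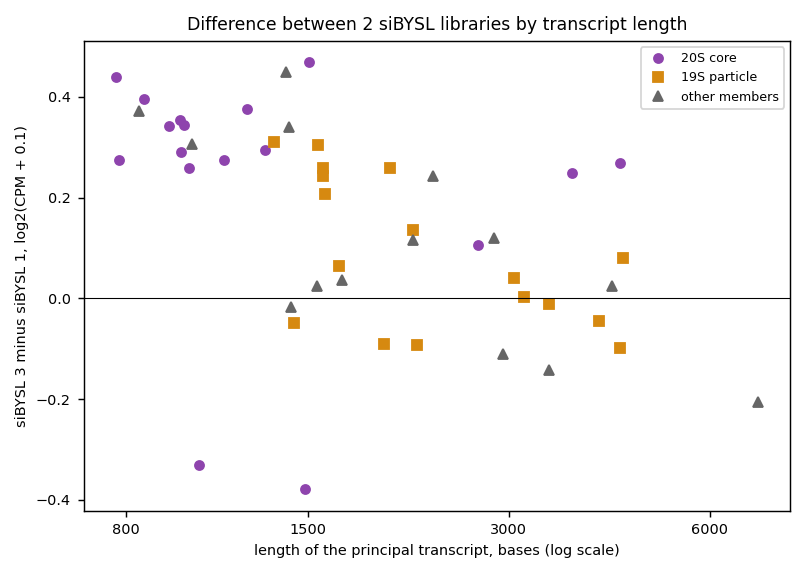
Each point is a proteasome gene, with the length of its principal transcript in bases (log axis) against its log2(CPM + 0.1) in siBYSL 3 minus siBYSL 1; circles are core, squares 19S and triangles other genes. Most genes with short transcripts lie above 0, and the 2 low circles at short lengths are PSMA2 and PSMA6, without which r was -0.70 over 46 genes.

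Promoter sequence was examined because NFE2L1, the factor that raises proteasome genes when proteasome activity is low, binds antioxidant response elements with small MAF partners. The core of that element was searched as TGACNNNGC on both strands in RefSeq promoter windows (GRCh38.p14) of 300 bases, 250 before and 50 after the annotated start. Windows were found for 43 of the 49 genes, and 15 of these (34.9%) held the motif. Of 27305 genes with a window, tested or not, 16.1% held it. Among tested genes with a window, 2190 held it and 9057 did not. Of the called genes, 9 had the motif within a window and before its annotated start. The stretches shown are from the 5 with it at least 100 bases before, read on the gene's strand, with the motif in capitals.
PSMB9 (chr6:32854019-32854077, plus strand): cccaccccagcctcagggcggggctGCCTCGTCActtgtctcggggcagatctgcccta
PSMD5 (chr9:120843023-120843081, minus strand): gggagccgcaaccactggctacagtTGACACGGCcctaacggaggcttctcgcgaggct
PSMB3 (chr17:38752612-38752670, plus strand): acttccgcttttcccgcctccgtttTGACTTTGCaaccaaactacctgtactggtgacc
PSME2 (chr14:24146752-24146810, minus strand): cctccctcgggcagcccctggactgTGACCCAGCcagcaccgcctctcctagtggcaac
PSMD12 (chr17:67366709-67366767, minus strand): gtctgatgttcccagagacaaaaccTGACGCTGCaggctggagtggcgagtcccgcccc
PSMB9 carries the motif on the opposite strand and the other 4 on the gene's strand. The RefSeq starts used for PSMB9 and PSME2 lie inside the genes as GENCODE 29 draws them. Of the 15 genes with the motif 10 were called lower, and of the 27 tested genes with a window and no motif 12 were called lower and 1 higher. Over all tested genes with a window, 20.3% of 2190 with the motif and 19.9% of 9057 without it were called lower. The CCAAT box, searched in the same way, was in 21 of the 43 genes (48.8%) and in 39.7% of all genes with a window, tested or not. A match is a description of these letters and no binding was measured.

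Genes of the route that are not named PSM were read from lists of 48 genes. Of these, 20 (41.7%) were called lower and 5 (10.4%) higher, with a median log2 fold change of -0.12. Over all genes tested 18.4% were lower and 18.5% higher, which is the background for each list that follows. With library totals as the scaling, 14 of the 48 were lower and 7 higher, where 1989 and 4106 of all 16412 genes tested were. POMP, the maturation factor of the core, was lower at 172, 183 and 211 CPM in siBYSL, against 255, 238 and 252 CPM in siNC (log2 fold change -0.40, edgeR adjusted p = 0.00165). ADRM1, a ubiquitin receptor of the 19S particle, was also lower (-0.33, adjusted p = 0.00501), and PAAF1, an assembly chaperone of the 19S base, was higher (0.32, adjusted p = 0.00325). The other 5 of the 8 subunit and assembly genes, such as SEM1 (-0.10), were not called. POMP and ADRM1 thus moved in the direction of most PSM genes and PAAF1 in that of PSMG4.

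Among 9 genes of the NFE2L1 route, 4 were called lower and 1 higher. NFE2L1 itself was the higher one, with 223, 219 and 198 CPM in siBYSL, against 162, 172 and 158 CPM in siNC (log2 fold change 0.38, edgeR adjusted p = 6.5e-04). The small MAF genes MAFF (-0.58, adjusted p = 9.5e-05) and MAFK (-0.49, adjusted p = 2.9e-04) and the related factor NFE2L3 (-0.30, adjusted p = 0.00296) were lower. The protease DDI2 and the glycanase NGLY1, which process NFE2L1 protein, had 0.10 and 0.05 and were not called. These are message levels, and processed NFE2L1 protein was not measured.

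Of 14 shuttle receptors, deubiquitinases and linked enzymes, 5 were lower and 2 higher. The ubiquitin ligases that bind proteasomes were called in opposite directions, with UBE3A higher (0.56, edgeR adjusted p = 1.1e-04) and UBE3C lower (-0.49, adjusted p = 3.3e-04). The shuttle receptor UBQLN1 was lower (-0.37, adjusted p = 1.9e-04). Of 6 genes of ubiquitin and its activating enzymes, UBB (-0.33, adjusted p = 0.00371) and UBA1 (-0.18, adjusted p = 0.0126) were lower. The UBA1 call was lost with library totals and without siBYSL 2, siNC 1, siNC 2 or siNC 3. Ubiquitin genes share near-identical repeats, so the reads of UBB may be split.

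Of 11 genes of peptide presentation, which use the products of the immunoproteasome, 7 were lower and 1 higher. The peptide transporter genes TAP2 (-0.49, edgeR adjusted p = 6.6e-05) and TAP1 (-0.29, adjusted p = 6.6e-04) were lower, as were IRF1 (-0.32, adjusted p = 4.6e-04), an interferon-response factor, and HLA-B (-0.41, adjusted p = 7.7e-04), whose reads may be shared with other HLA genes. TAP1 and TAP2 lie beside PSMB8 and PSMB9 in the genome. PSMB9, TAP1 and TAP2 were called lower and PSMB8 was not. NLRC5, an activator of class I presentation genes, was the 1 called higher (0.31, adjusted p = 0.00991), a call lost without siNC 3.

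**Figure D5:**
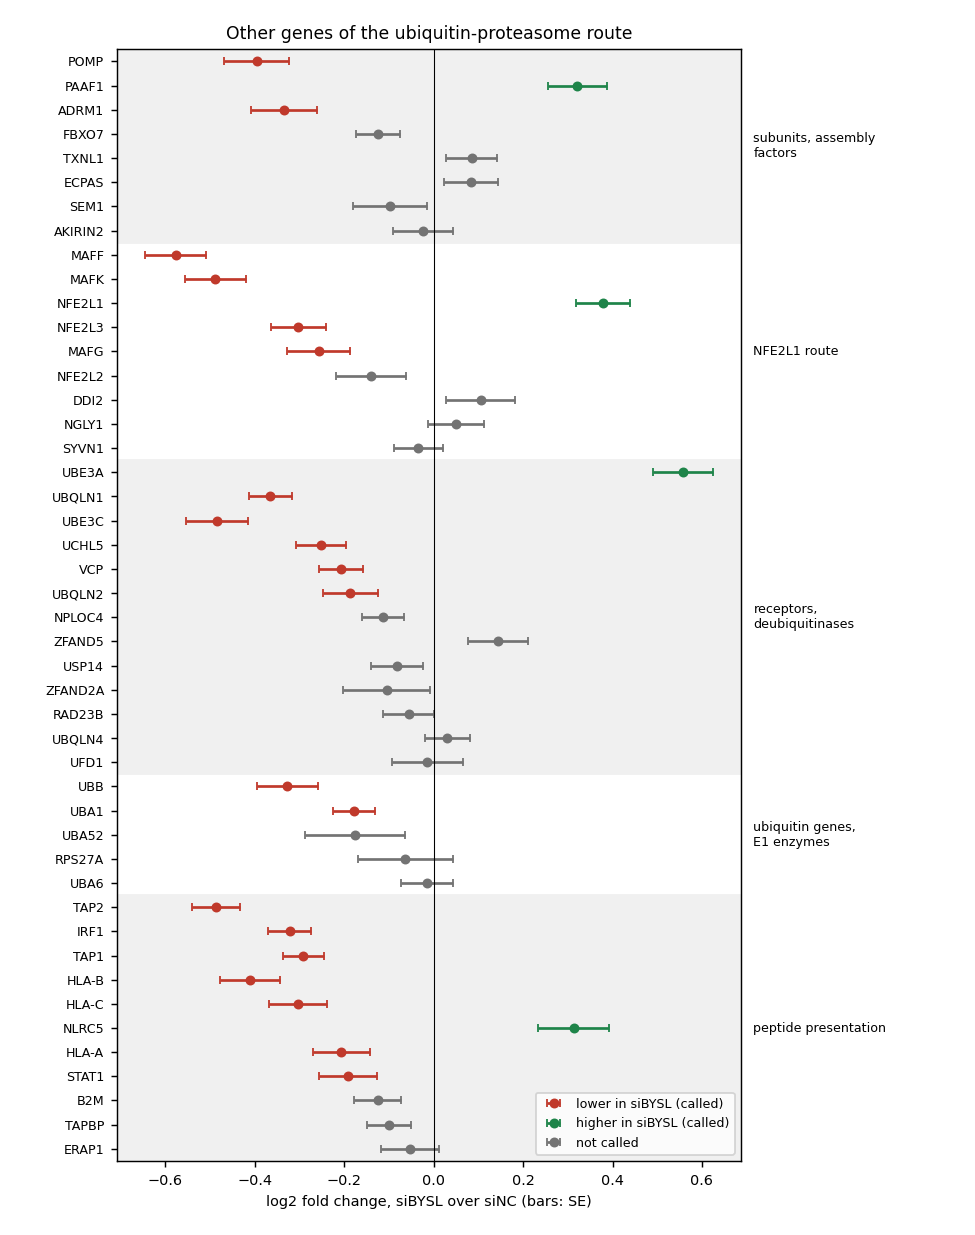
Points are log2 fold changes, siBYSL over siNC, with SE bars, for other genes of the ubiquitin-proteasome route in 5 groups; red is called lower, green higher and grey not called. NFE2L1, at 0.38, is to the right while its small MAF partners MAFF and MAFK are at -0.58 and -0.49.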

How the data were processed

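Poly(A) RNA of 3 siBYSL and 3 siNC cultures of MDA-MB-231 cells was sequenced as 150-nt paired-end, strand-specific libraries, per the labels' protocols. The authors deposited raw counts per gene, as whole numbers, for the 6 libraries. The submitters' processing notes list HISAT2, DESeq2 and the build GRCh38.p13. How reads were assigned to genes, with which strand setting and annotation, is not given.

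Counts were filtered with filterByExpr by group (16412 genes left), scaled by TMM and tested with edgeR 4.0.16 in R 4.3.3 (robust quasi-likelihood F test, group only, Benjamini-Hochberg over all genes tested, threshold 0.05). SE is the absolute log2 fold change over the square root of F, and 95% intervals are 1.96 SE each way. The common biological coefficient of variation was 0.0649. Alternatives used DESeq2 1.42.0 (size factors, Wald test), limma 3.58.1 (voom), upper-quartile factors, library totals, no filter, a filter at 1 CPM (reached in 3 libraries or more), a block on replicate number, and each library left out. Further ones, added after seeing the data, summed genes that share exons and dropped PSMC3IP and PSME3IP1. Ratios, annotation and figures used Python 3.11.15 with SciPy 1.17.1, statsmodels 0.14.6, pandas 2.3.3, NumPy 2.4.6 and Matplotlib 3.10.9; log2(CPM + 0.1) was used per library. The edgeR fit was tested on simulated data. Coordinates, lengths, exons and 3′ untranslated regions are from GENCODE 29 (GRCh38), which may differ from the authors' annotation.

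Every proteasome gene was named; values per library were given for called genes, up to 12 in each direction by absolute log2 fold change, and for the catalytic pairs, and up to 4 called genes of each other list by smallest p. The other genes given outside this rule were chosen after their values were seen. Some genes of the lists are counted but not reported here by name. Members and lists were chosen with earlier results of these data known.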

Additional observations from a re-analysis of the deposited data

How the results depend on the processing

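Of the 24 called proteasome genes, 13 held their call in all 15 alternatives run (PSMA5, PSMB2, PSMB9, PSMC1, PSMC4, PSMC5, PSMD2, PSMD5, PSMD12, PSME2, PSME3, PSME4 and PSMG2), 11 lost it in at least 1, and 0 changed direction. The count of proteasome genes called lower was 23 with DESeq2 size factors, 16 with library totals, 18 with upper-quartile factors, 25 without a filter, 21 with the filter at 1 CPM, 21 by the DESeq2 Wald test and 22 by limma-voom. The shares of all genes tested that were called lower were, in the same order, 18.8%, 12.1%, 14.7%, 11.8%, 20.1%, 17.2% and 18.6%. With a library left out, 15 to 34 proteasome genes were called lower (15 without siNC 1 or siNC 3, 34 without siBYSL 3). Of all genes tested, 12.5% (without siNC 3) to 24.3% (without siBYSL 3) were. In these runs 0 to 1 proteasome genes were called higher (0 without siBYSL 2, siNC 2 or siNC 3). Library totals and upper-quartile factors each called 2 genes higher, PSMD7 and PSMG4. Over all genes, library totals gave 1989 lower and 4106 higher (67.4% of calls higher, against 50% with TMM), and upper-quartile factors 2418 lower and 3630 higher (60% higher). With exon-sharing genes summed, 25 were lower, with PSMA1, PSMA2 and PSMA6 added and PSMB10 lost. The sums for PSMA2 and PSMA6 were nearly all counts of the overlapping gene, and the sum for PSMA1 held more of its counts than of PSMA1 itself.

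Genes without a call changed sign under some settings; the cause was not tested. With library totals PSMA4 and PSMC6 stood at 0.02, PSMC3 and PSME3IP1 at 0.03, PSMD13 at 0.06, PSMG3 at 0.01, and PSMA1, PSMB1, PSMD1 and PSMG1 at 0.07. With upper-quartile factors PSMA1 stood at 0.04 and PSMB1, PSMD13, PSMD1 and PSMG1 at 0.03. With the filter at 1 CPM PSMA1 stood at 0.01 and PSMG1 at 0.00. With each library left out in turn, values ran from -0.13 to 0.10 for PSMA1, -0.37 to 0.08 for PSMA2, -0.13 to 0.01 for PSMA4, -0.11 to 0.07 for PSMB1, -0.04 to 0.09 for PSMB8, -0.12 to 0.01 for PSMC3, -0.10 to 0.04 for PSMD13, -0.20 to 0.03 for PSMG3 and -0.04 to 0.02 for PSMG1.

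Pairing by replicate number was checked by correlating, over genes, the deviations of each library from its group mean in log2 CPM. Between same-numbered libraries these deviations correlated at -0.129, 0.0596 and 0.0106, and not every library correlated best with its own number. With 3 libraries in each group this cannot exclude a pairing. With a replicate block, 20 proteasome genes were lower (PSMC3IP, PSMD11 and PSMF1 being lost) and 1 higher, 17 and 5 of the other route genes, and 2764 and 2802 of all genes.

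Each group held 3 libraries, so a permutation of library labels cannot give p under 0.10. The overlap setting of the counting limits genes that share exons on their strand with another gene, such as PSMA1, PSMA2, PSMA6 and PSMB10. PSMD9, which shares 14.9% of its exon bases with RP11-87C12.2 in this way, is limited too and was not summed. The strand setting of the counting limits genes with exons opposite another gene, such as PSMC1 (75.8% of exon bases), PSMD7 (30.7%), PSMC3IP (29.9%), PSMB8 (20.6%) and PSMC5 (19.5%).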
